A study of Danio rerio with 6 samples.

Results

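The genes hmgcs1, msmo1, nsdhl and scd encode enzymes of sterol and lipid synthesis, and their transcripts were followed in the forebrain region called the telencephalon in male zebrafish given the aromatase inhibitor fadrozole. They were taken as every probe set of the array, apart from the maker's own controls, whose single gene symbol was 1 of these 4 names. Each name had 1 probe set, so the group held 4 of the 8793 genes with a symbol of their own and 4 of 15502 probe sets. They were chosen by their difference between the fadrozole and the control arrays of this study, as genes of sterol and lipid synthesis with a clear rise. No threshold was given with that choice, and other synthesis genes had larger but less precise differences than scd. Among them mvk, the mevalonate kinase gene, also had a larger but less precise difference than nsdhl. The values of the 4 genes in that comparison are therefore a description with no test.

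The control group was sexually mature male fish with no stated exposure. The fadrozole group was the same kind of fish kept for 10 days with fadrozole at 200 µg/L. Fadrozole blocks aromatase, the enzyme that turns androgens into estrogens. There were 3 arrays in each group, every one made from about 30 pooled telencephalons. Strain, age in days and the independence of the pools are not stated, so errors and p-values measure only the spread between these arrays. In such pooled tissue, more cells of a type and more RNA per cell cannot be told apart. The deposited values are ratios to the median of the control arrays, so they give no level of one gene against another and cannot show whether telencephalic marker genes were present.

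Cells build cholesterol from acetyl units through the mevalonate pathway, which leads to squalene, then to lanosterol, and from there through a series of demethylations and reductions to cholesterol. Proteins of the SREBP family, which are released from the endoplasmic reticulum when membrane sterol is low, switch on many of these genes together with genes of fatty acid synthesis. In mammals the brain makes nearly all of its own cholesterol, much of it in glia and in cells that form myelin, and cholesterol is also the starting point of every steroid hormone. The enzyme encoded by hmgcs1 joins acetyl units to form the precursor of mevalonate, at the head of the pathway. Those encoded by msmo1 and nsdhl act together after lanosterol, where msmo1 oxidises methyl groups at carbon 4 and nsdhl removes them as carbon dioxide. The product of scd is a stearoyl-CoA desaturase, which places a double bond in saturated fatty acids, so scd belongs to lipid rather than to sterol synthesis.

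On these arrays hmgcs1 was 2.51-fold, msmo1 2.35-fold, nsdhl 1.96-fold and scd 1.67-fold higher with fadrozole than in control fish, each from 3 arrays per group. With array shifts removed, the lowest fadrozole array lay above the highest control array for all 4 genes, which held for 3.93% of all genes. In the ratios as deposited it held for 3 of the 4, where nsdhl overlapped, and for 2.91% of all genes. After quantile normalization it held for hmgcs1 and msmo1 and for 1.71% of all genes. As these values chose the genes, nothing is read from that count. No gene of the array passed the adjusted test of limma, which tests each gene with its own spread drawn towards that of all genes. An adjusted p under 0.05 was found in 0 of 8793 genes (0%), and an unadjusted p under 0.05 in 360 (4.09%).

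For hmgcs1, the deposited ratios were 0.284, 1.218 and 1.00 on control replicates 1, 2 and 3, and 1.248, 2.934 and 1.475 on fadrozole replicates 1, 2 and 3. Control replicate 1 stood far below the other controls, and fadrozole replicate 2 stood above the rest, while fadrozole replicate 1 was close to control replicate 2. On the log2 scale with array shifts removed, the mean was 0.81 ± 0.52 (SD, n = 3) on the fadrozole arrays and -0.51 ± 1.03 (SD, n = 3) on the control arrays. The log2 difference was 1.33 ± 0.59 (standard error), the largest of the 4 and the least precise.

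For msmo1, the ratios were 0.416, 1.121 and 1.00 on control replicates 1, 2 and 3 and 1.33, 2.201 and 2.032 on fadrozole replicates 1, 2 and 3. Again control replicate 1 was lowest, and all fadrozole arrays were above all controls. The shifted log2 means were 0.86 ± 0.34 (SD, n = 3) and -0.37 ± 0.69 (SD, n = 3), a difference of 1.23 ± 0.42. Between the lowest fadrozole and the highest control array lay a gap of 0.34 on the log2 scale, the widest of the 4 genes.

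The partner of msmo1 in demethylation, nsdhl, had ratios of 0.998, 2.417 and 1.00 on control replicates 1, 2 and 3 and of 3.064, 2.921 and 1.999 on fadrozole replicates 1, 2 and 3. As deposited, control replicate 2 was thus higher than fadrozole replicate 3, and the groups overlapped. With array shifts removed, control replicate 2 was at 1.02 and fadrozole replicate 3 at 1.09 on the log2 scale, a gap of 0.07. Means were 1.39 ± 0.30 (SD, n = 3) with fadrozole and 0.42 ± 0.52 (SD, n = 3) in controls, a difference of 0.97 ± 0.35.

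The desaturase gene scd had ratios of 0.591, 1.00 and 1.131 on control replicates 1, 2 and 3 and of 1.587, 1.484 and 1.299 on fadrozole replicates 1, 2 and 3. Its fadrozole arrays lay close together, with a range of 0.32 on the log2 scale, smaller than the median range of 0.81 over all genes. Means were 0.54 ± 0.17 (SD, n = 3) with fadrozole and -0.20 ± 0.48 (SD, n = 3) in controls, which gave the smallest difference of the 4, 0.74 ± 0.32.

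**Figure D1:**
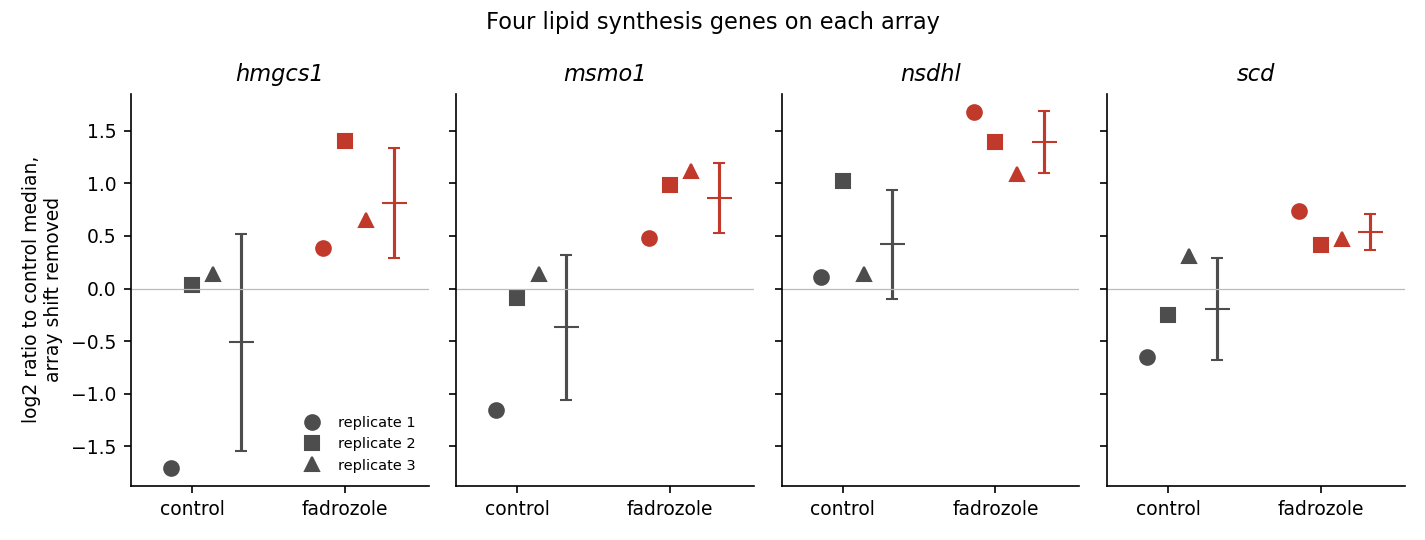
Log2 ratio to the control median (vertical axis, array shift removed) of hmgcs1, msmo1, nsdhl and scd on each control array (grey) and fadrozole array (red), with the marker shape giving the replicate number and the bars the mean ± SD of 3 arrays. The fadrozole points lie above the control points in each panel, by 0.07 for nsdhl and 0.34 for msmo1, and control replicate 1 is lowest in all 4.

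Control replicate 1 was the lowest of the 6 arrays for all 4 genes, although for nsdhl it was nearly level with control replicate 3 (0.11 against 0.14 on the log2 scale). The mean of the 4 genes was -0.85 on this array, against 0.18 on each of the other controls and 0.82 to 1.05 on the fadrozole arrays. Without it, the log2 differences were 0.73 ± 0.40 for hmgcs1, 0.84 ± 0.33 for msmo1, 0.81 ± 0.40 for nsdhl and 0.51 ± 0.32 for scd. That is 1.66-fold for hmgcs1, 1.79-fold for msmo1, 1.76-fold for nsdhl and 1.42-fold for scd. The range of hmgcs1 over the 3 control arrays, 1.84 on the log2 scale, exceeded that of 75.9% of all genes, that of msmo1 exceeded 63.2%, that of scd 51.5% and that of nsdhl 49.4%.

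The slide numbers in the labels fall into 2 runs, with replicates 1 and 3 of both groups in the larger and replicate 2 of both groups in the smaller. Within the larger run the log2 differences were 1.31 ± 0.74 for hmgcs1, 1.31 ± 0.59 for msmo1, 1.27 ± 0.34 for nsdhl and 0.77 ± 0.45 for scd. Within the smaller run, with 1 array per group and so no error, they were 1.37 for hmgcs1, 1.07 for msmo1, 0.37 for nsdhl and 0.67 for scd. The values of hmgcs1, msmo1 and scd differed between the runs by less than 1 standard error of the larger run, and that of nsdhl was larger in the larger run, a difference that was not tested.

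**Figure D2:**
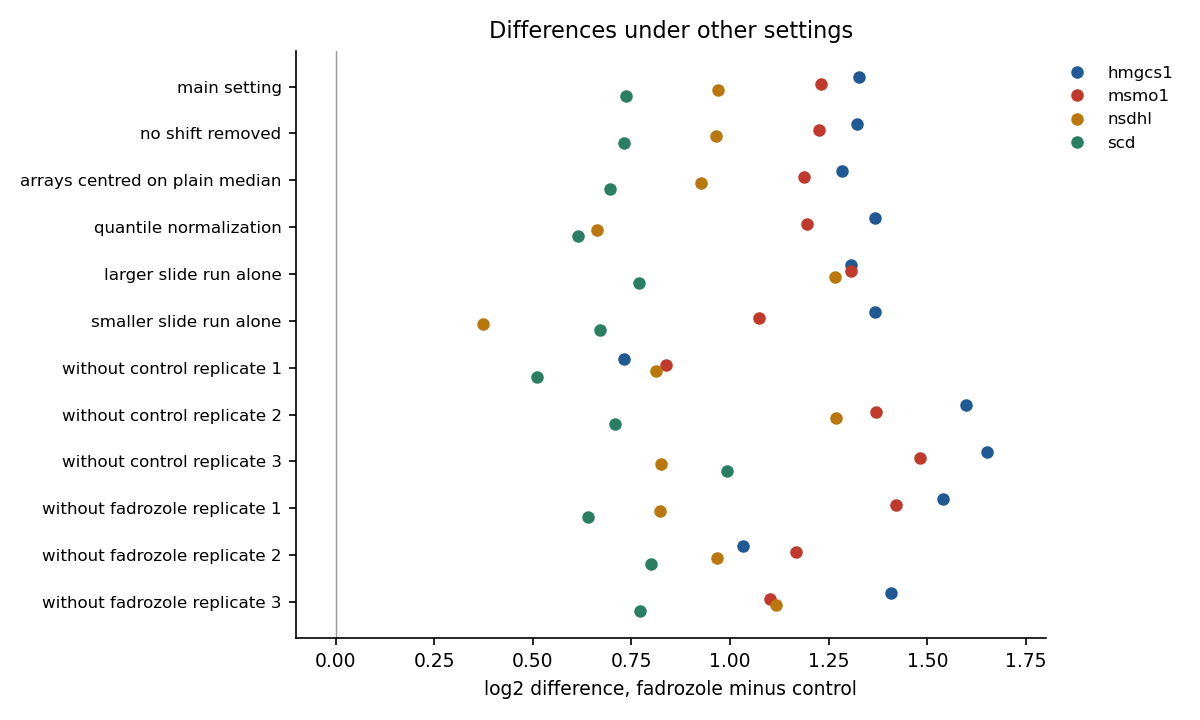
Log2 difference, fadrozole minus control (horizontal axis), of the 4 genes under other array scalings, in each slide run alone and with each array left out. All points lie above 0, from 0.37 for nsdhl in the smaller slide run to 1.65 for hmgcs1 without control replicate 3. The genes were chosen for their rise. With array shifts removed their groups did not overlap, so the sign could not turn in a single run or with an array left out.

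Among all 8793 genes, the difference of hmgcs1 ranked 285, that of msmo1 364, that of nsdhl 624 and that of scd 973 from the top. A larger difference than that of scd was thus found in 11.1% of genes, and a larger one than that of hmgcs1 in 3.23%. Set against its own standard error, the order changed to msmo1 at rank 108, nsdhl at 127, scd at 228 and hmgcs1 at 237. Without control replicate 1, larger differences were found in 12.8% of genes for hmgcs1, 11.1% for msmo1, 11.4% for nsdhl and 18.1% for scd.

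**Figure D3:**
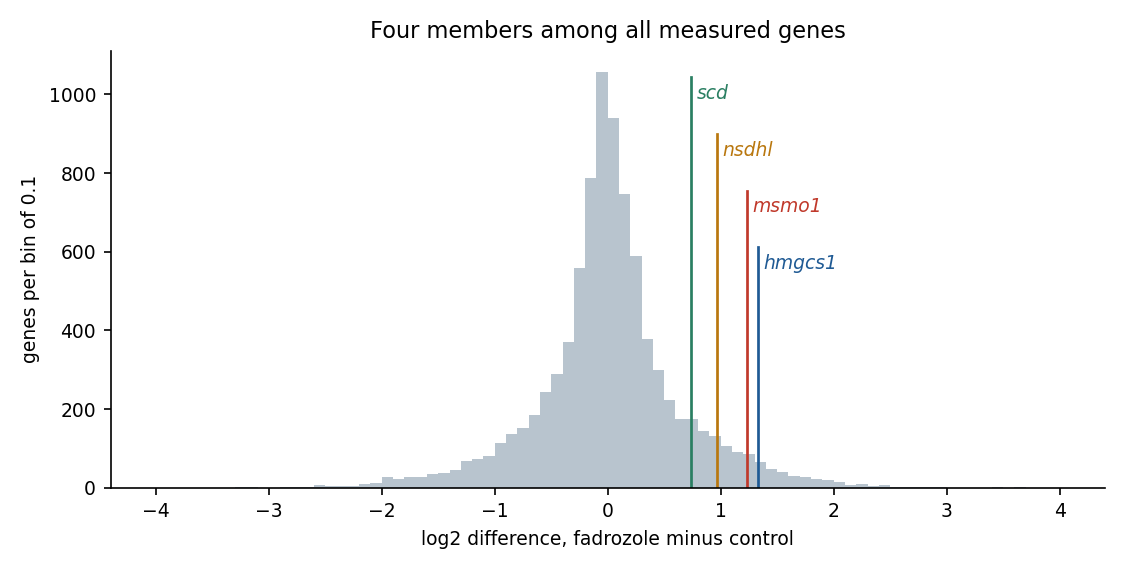
Histogram of the log2 difference, fadrozole minus control (horizontal axis), over 8793 genes in bins of 0.1 (vertical axis, genes per bin), with vertical lines at hmgcs1, msmo1, nsdhl and scd. The 4 lines stand in the upper shoulder of the distribution, between 0.74 and 1.33, and the line heights only separate the labels.

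Other genes of sterol and lipid metabolism were taken from 5 lists, of which 48 genes had a probe set of their own. In limma's test adjusted over all genes, 0 of these 48 passed in either direction, with a smallest adjusted p of 0.999, and 0 had an unadjusted p under 0.05. By sign alone 25 were higher and 23 lower, with a median log2 difference of 0.01, where all genes had 50% higher and a median of -0.00016. With array shifts removed, the fadrozole arrays lay above all controls in 2 genes and below them in 1, against 3.93% and 3.89% of all genes.

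The remaining genes of cholesterol synthesis share a pathway with hmgcs1, msmo1 and nsdhl, though not with scd, and none of these remaining genes passed the adjusted test. Of 8 measured, 7 had a difference above 0, with a median of 0.36, and the same count was found without control replicate 1 (median 0.33). In the smaller slide run alone the count was 4 of 8. The list overlaps the one on which the 4 genes were noticed, so its direction is not independent of their choice. On the mean of the list, control replicate 1 was again lowest, at -0.36, and fadrozole replicate 1, at -0.10, lay below control replicates 2 and 3, at 0.04 and 0.03.

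In pathway order, the thiolase genes acat1 and acat2, whose enzymes can join acetyl units, were at 0.16 ± 0.24 and 0.15 ± 0.28. The mevalonate kinase gene mvk was at 1.14 ± 0.98, with arrays from -2.42 to 0.78 in controls and from -0.49 to 1.85 with fadrozole. Its groups overlapped, and its difference was 0.24 without control replicate 1, 0.47 without fadrozole replicate 3, 1.84 without control replicate 3, 1.83 in the larger slide run and -0.24 in the smaller one. The gene of farnesyl diphosphate synthase, fdps, was at 0.32 ± 0.30 and that of squalene synthase, fdft1, at -0.29 ± 0.78.

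After lanosterol, cyp51 encodes the enzyme that removes the methyl group at carbon 14, before the steps of msmo1 and nsdhl. Its mean over 4 probe sets was 0.12, 0.39 and 0.05 on control replicates 1, 2 and 3 and 0.13, 1.37 and 0.89 on fadrozole replicates 1, 2 and 3. Fadrozole replicate 1 was level with the controls and the other fadrozole arrays were above them, giving a difference of 0.61 ± 0.37. The 4 probe sets of cyp51 differed by 1.01 ± 1.00, 0.41 ± 0.45, 0.19 ± 0.42 and 0.82 ± 0.70, all above 0 and all with overlapping groups. The first and the last were both high on fadrozole replicate 2, with ratios of 5.223 and 5.479, but the first also had 4.546 on control replicate 2 and 6.581 on fadrozole replicate 3, where the last had 1.322 and 0.926. The 4 genes named at the outset have 1 probe set each, so no such comparison within a gene was possible for them.

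The receptor gene lbr, whose product also reduces the sterol ring after cyp51 has acted, was at 0.48 ± 0.24. With array shifts removed it was the only other gene of the list whose groups did not overlap. Its arrays ran from -0.26 to -0.14 in controls and from 0.08 to 0.55 with fadrozole as a mean of 2 probe sets. Each probe set alone overlapped, at 0.59 ± 0.78 and 0.38 ± 0.69. The 2 differed widely on single arrays, with 1.35 and -1.83 on control replicate 1 and 1.91 and -0.80 on fadrozole replicate 3. In the ratios as deposited, the mean log2 value was lower on fadrozole replicate 1 than on control replicate 2, so the groups overlapped. At the end of the pathway dhcr7, which carries out the final reduction to cholesterol, was at 0.40 ± 0.30.

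Among genes that regulate sterol synthesis and sterol uptake, 3 of 7 were above 0, with a median of -0.03, and 0 passed the adjusted test. Control replicate 1 was the lowest array on the mean of this list too, at -0.41, and without it the median was -0.22. Here insig1, whose product holds the SREBP complex in the endoplasmic reticulum and which in mammals is itself switched on by SREBP, was at 0.32 ± 0.28. In its arrays, control replicate 1 was lowest at -0.33, as for the 4 genes, and fadrozole replicate 1 at -0.05 lay below control replicates 2 and 3. Of 7 genes in the branch from mevalonate to other isoprenoids, 5 were above 0 and 0 passed. Their median was 0.20, and 0.22 without control replicate 1. The gene pdss1, whose product builds the side chain of coenzyme Q, was at 0.61 ± 0.30. Its groups did not overlap, but 1 of its 2 probe sets showed overlap.

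The genes of fatty acid synthesis, elongation and desaturation, the pathway that scd belongs to, had 6 of 16 above 0. Their median was -0.10, and -0.18 without control replicate 1, and 0 passed the adjusted test. The acetyl-CoA synthetase gene acss2 was at -0.53 ± 0.30. With array shifts removed, all its fadrozole arrays lay below all controls by a narrow margin (-0.29 on fadrozole replicate 1 against -0.28 on control replicate 1). In the ratios as deposited, fadrozole replicate 1 lay above control replicate 1, so the groups overlapped. The gene aclya, whose product supplies cytosolic acetyl-CoA, was at 0.02 ± 0.35 and the desaturase gene fads2 at -0.21 ± 0.25. In the list of cholesterol export, storage and breakdown 4 of 10 were above 0 and 0 passed. Its median was -0.07, and -0.20 without control replicate 1. The list includes apoeb, a lipid carrier, at -0.34 ± 0.42.

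**Figure D4:**
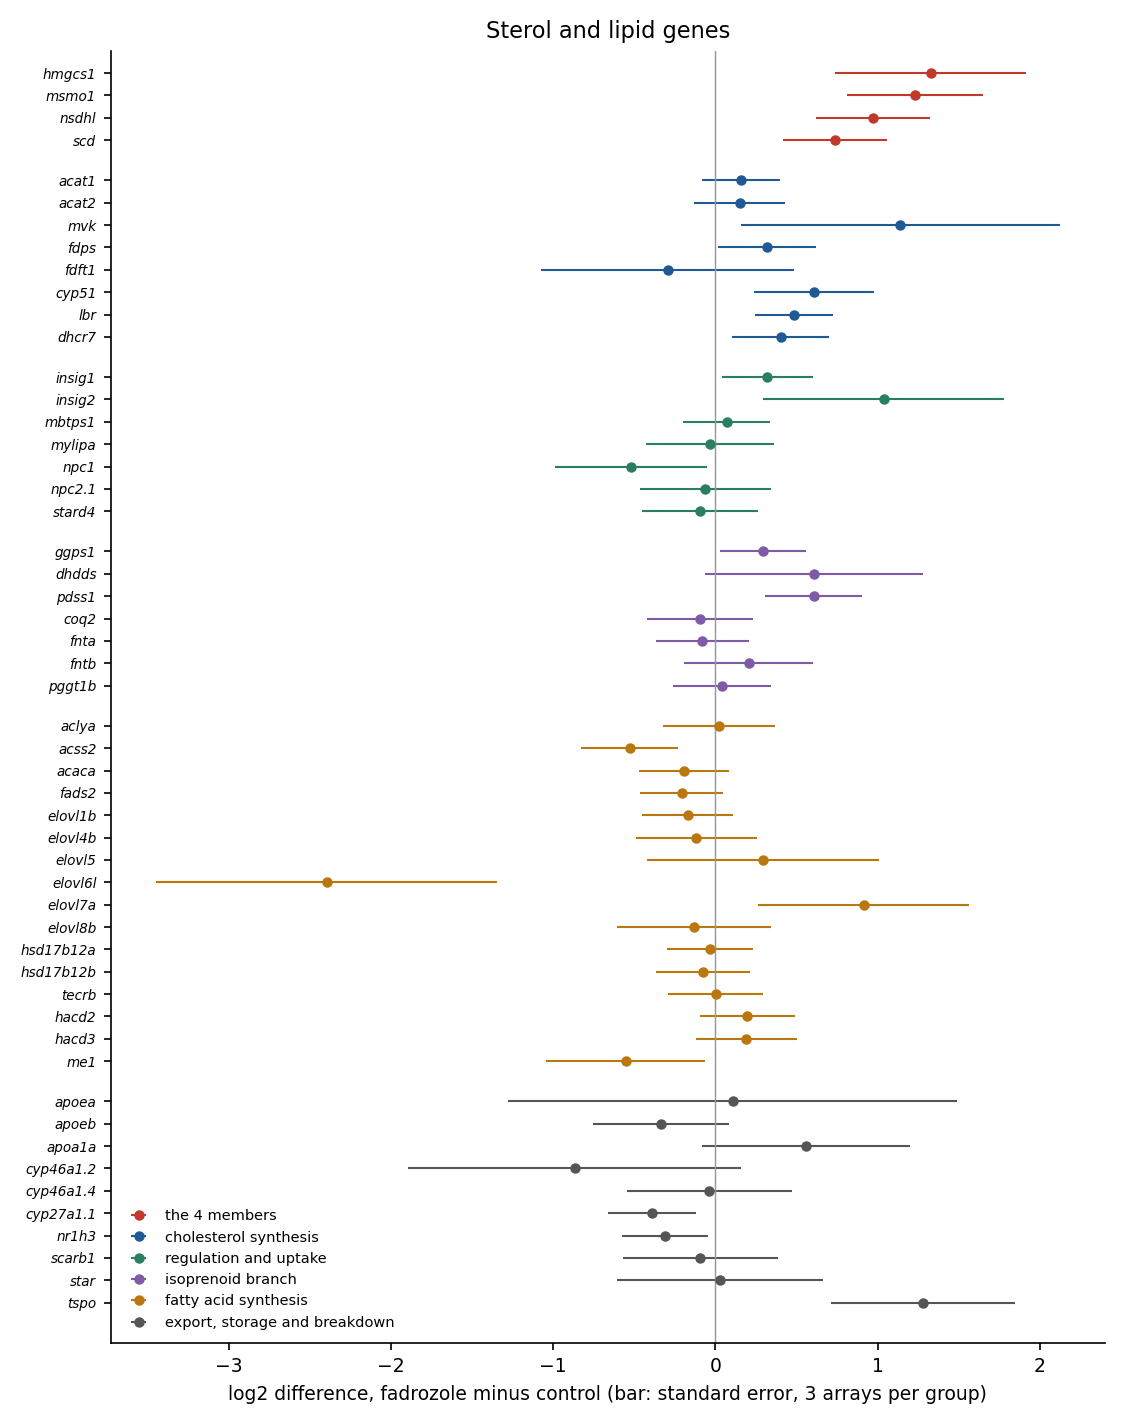
Log2 difference, fadrozole minus control (horizontal axis, point), with its standard error (bar) for hmgcs1, msmo1, nsdhl and scd at the top and 48 other genes in 5 lists below, in pathway order. The other genes of cholesterol synthesis lie between -0.29 and 1.14 with 7 of 8 to the right of 0, and the remaining lists lie on both sides.

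Marker lists for 8 cell types or tissues were set beside these values, since glia and myelinating cells are known makers of cholesterol. In 0 of the 8 lists did any gene pass the adjusted test. Myelin and oligodendrocyte genes had 4 of 8 above 0, with a median of -0.08 and array means from -0.41 to 0.26 in controls and from -0.08 to 0.22 with fadrozole. Radial glia had 7 of 12 above 0, with a median of 0.08 and array means from 0.07 to 0.15 in controls and from -0.01 to 0.08 with fadrozole. By limma's unadjusted p under 0.05, 2 genes of that list were lower and 0 higher. By groups that did not overlap, 2 were lower and 0 higher. The lowest of the radial glia list was brain aromatase, cyp19a1b, at -1.11 ± 0.31. Over all genes, 4.09% had such a p in either direction, and groups lay apart in 3.89% lower and 3.93% higher. The myelin list had 1 gene higher and 1 lower by each count. Microglia and leukocytes had 1 higher by p and 1 lower by overlap, neurons 1 lower by overlap, and the other lists 0. Neurons had 6 of 12 above 0, with a median of 0.001, microglia and leukocytes 3 of 10 with -0.15, red blood cells 5 of 9 with 0.05, skeletal muscle 6 of 10 with 0.17 and the pituitary 2 of 5 with -0.19.

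The endothelial list had few measured markers, kdrl, tie1, tek and fli1, and 0 passed the adjusted test. All 4 lay above 0, with a median of 0.53, and array means ran from -0.59 to 0.34 in controls and from 0.13 to 1.01 with fadrozole. Control replicate 1 was the lowest array of this list too, and without it the median was 0.20. The same array was lowest in the pituitary list, at -0.74 against -0.10 and 0.21 on control replicates 2 and 3. There the median was -0.19 with it and 0.20 without it. Leaving out a low control array lowers the difference of the list mean, so this median over 5 genes moved against the mean. The part of endothelial cells in the values of the 4 genes was not tested.

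The genes whose array values came closest to the mean of the 4 were found by the root mean square log2 difference over the 6 arrays. The angiopoietin gene angpt1, which encodes a ligand of the endothelial receptor Tie2, was nearest, at 0.19, with -0.69, -0.20 and 0.14 on control replicates 1, 2 and 3 and 0.77, 0.89 and 0.89 on fadrozole replicates 1, 2 and 3. It was followed by the ubiquitin ligase gene rnf146 at 0.30, the DNA repair gene xrcc6 at 0.31, the dynein gene dync1i2b at 0.31 and the forebrain homeobox gene lhx5 at 0.32. Of the 4 genes themselves, msmo1 lay 0.25 from their mean, scd 0.36, hmgcs1 0.43 and nsdhl 0.65, each being part of that mean. The 5 nearest genes were picked for this pattern, so their low values on control replicate 1 and high values with fadrozole follow from the choice.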

How the data were processed

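Biotin-labelled RNA was hybridised to one-colour arrays, per the labels. How they were scanned, scaled and summarised is not given in the sources used here. The authors deposited each probe set as a ratio to its control median, which is exactly 1 in all 15617 rows, so brightness is lost and dim probe sets could not be filtered. Log2 values were taken with no pseudocount, and each array's shift was removed (the median, over probe sets, of the array's distance from the mean of 6 arrays, -0.14 to 0.25). The 115 control probe sets were left out. GEO's platform annotation gave 1 symbol to 10795 probe sets, several to 135 and none to 4572. A RefSeq table for GRCz12tu held 10711 of the 10795 by gene number and updated 1 symbol. Genes with several probe sets were given their mean. Older list symbols were matched through its synonyms. Groups were compared in R 4.3.3 by a two-sided moderated test (limma 3.58.1, lmFit and eBayes) with p adjusted over all genes by Benjamini-Hochberg, and the fit was tested on simulated data. A value after ± is a standard error of the limma fit unless SD is written. It rests on the gene's own spread drawn towards that of all genes, so it does not follow from the printed SDs alone.

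The 4 genes, the gene lists and the tests were chosen with earlier results of these data known. Named genes were the 4, all measured cholesterol synthesis genes, a set of regulators and lipid genes named by symbol, up to 3 further genes a list whose groups did not overlap, and the 5 genes nearest in pattern. Alternatives were other scalings, a pseudocount of 0.1, other variance priors, array weights, probe-set types, blocks for slide run or replicate, each run alone and each array left out.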

Additional observations from a re-analysis of the deposited data

How the results depend on the processing

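The log2 differences of hmgcs1, msmo1, nsdhl and scd stayed above 0 under every scaling, block, pseudocount, slide run and left-out array that was run. Their groups did not overlap with array shifts removed, so a left-out array or a single slide run could not turn the sign. A block for slide run or replicate leaves the difference unchanged in this balanced design. As the genes were chosen for their rise, nothing is read from the sign. The log2 differences moved by more than the spread between replicates only for nsdhl in the smaller slide run (0.37 against 0.97). With 1 array left out they ran from 0.73 to 1.65 for hmgcs1, 0.84 to 1.48 for msmo1, 0.81 to 1.27 for nsdhl and 0.51 to 0.99 for scd, and for each gene the lowest value was without control replicate 1. The separation of the groups depended on scaling. It was lost for nsdhl with no shift removed, with plain median centring and with quantile normalization, where its difference was 0.66, and for scd with quantile normalization. Among the 48 listed genes, it was lost for lbr and acss2 with no shift removed. Calls past the adjusted test were 0 of 15502 probe sets in limma under every setting that could be fitted, and 0 of the 48 listed genes passed. Unadjusted p under 0.05 held for 655 probe sets, for 338 with quantile normalization, and for 638 to 994 with 1 array left out, the highest without control replicate 2. Of these, 336 were higher and 319 lower, and the balance turned with the setting, with 291 and 174 under a variance trend, 288 and 386 with plain median centring, 437 and 257 without control replicate 1 and 423 and 571 without control replicate 2. Same-numbered arrays shared deviations with r of 0.057, 0.193 and 0.088 across probe sets, and every array correlated best with its own number. The main fit did not pair the arrays by number, and these low values do not settle whether it should have. The highest r was that of replicate 2, whose arrays made up the smaller slide run. With the replicate block the count was 842 and the differences were the same. The standard errors of the 4 genes changed with that block. They were 0.40 against 0.59 for hmgcs1, 0.26 against 0.42 for msmo1, 0.33 against 0.35 for nsdhl and 0.34 against 0.32 for scd. The count of genes above 0 ran from 4 to 8 in cholesterol synthesis, 3 to 5 in regulation and uptake, 3 to 5 in the isoprenoid branch, 4 to 8 in fatty acid synthesis and 2 to 6 in export, storage and breakdown. Each of the 4 genes has 1 probe set, so single probe sets could not be set against a mean.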

Other observations

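Among the other lipid genes, 3 were singled out after their values were seen, and none passed the adjusted test. The translocator protein gene tspo, whose product sits in the outer mitochondrial membrane and is linked to steroid synthesis, was at 1.28 ± 0.57. Its log2 values were 0.11, 1.59 and -0.44 on control replicates 1, 2 and 3 and 1.90, 1.26 and 1.94 on fadrozole replicates 1, 2 and 3, so that control replicate 2 lay above fadrozole replicate 2. Within the slide runs tspo was at 2.09 in the larger and -0.33 in the smaller. The gene insig2, a relative of insig1, was at 1.04 ± 0.74 with all arrays and at -0.41 in the smaller slide run. The elongase gene elovl6l was at -2.40 ± 1.05, with 1.13, -2.58 and 0.14 on control replicates 1, 2 and 3 and -1.97, -3.97 and -2.57 on fadrozole replicates 1, 2 and 3.

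Of the 48 other sterol and lipid genes, 11 had several probe sets. In 6 of them all probe sets differed in the same direction, among them cyp51, lbr, fdps and insig1, and in 5 they differed in both directions. A shared direction did not mean a shared pattern over the arrays. The 2 probe sets of lbr were at 1.35 and -1.83 on control replicate 1 and at 1.91 and -0.80 on fadrozole replicate 3. The 2 probe sets of the lipoprotein receptor gene scarb1 were at -1.15 ± 0.87 and 0.97 ± 0.64, and those of elovl8b were at 0.77 ± 0.37 and -1.03 ± 0.89.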
